A study of Homo sapiens with 6 samples.

Results

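The genes described here drive or restrain the passage of a cell from G1 into S phase: the cyclins CCND1, CCND3 and CCNE1, the kinases CDK4, CDK6 and CDK2, the inhibitors CDKN1B and CDKN2A, the retinoblastoma gene RB1 and the transcription factor MYC. They were chosen by name, and 9 of the 10 were found among the gene names of a table with 10066 assembled loci. CDKN2A was not found among these names and is not analysed here. The rule by which loci entered the table is not stated, so this does not show that its mRNA was absent. Each of the 9 was a single locus that shared its values with no other named gene.

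RNA was taken from 3 human bladder cancer cell lines after 2 days with quisinostat or with DMSO alone. RT4 and RT112 cells carry an FGFR3-TACC3 fusion and SW780 cells carry an FGFR3-BAIBP2L1 fusion, as the labels spell it. Quisinostat, a histone deacetylase (HDAC) inhibitor, was given at 50 nM to RT4, 10 nM to RT112 and 25 nM to SW780 cells. Each line and treatment has 1 library, so a difference within a line has no replicate check, and dose cannot be told apart from cell line. All 16 urothelial or epithelial marker genes checked were found, with 13 to 15 of them at 1 FPKM or more in each library. FPKM is a fragment count scaled by transcript length and by the mapped fragments of its library. Of 4 leukocyte, 3 endothelial and 5 fibroblast markers, COL1A1 was the 1 gene found, at 0.0342 to 1.45 FPKM. As for CDKN2A, a name not found does not show that the mRNA was absent. FPKM is a share of each library, so fewer expressing cells and less RNA per cell cannot be told apart. Read depth is unknown, since the table holds no counts.

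As background, D-type cyclins are made in response to growth factor signals and activate CDK4 and CDK6, which begin to phosphorylate the RB1 protein. Cyclin E1 with CDK2 completes this step, and E2F factors freed from RB1 then switch on the genes of DNA replication. The protein of CDKN1B, p27, and the INK4 proteins hold these kinases in check. MYC is a transcription factor that binds the sequence CACGTG (an E-box) with its partner MAX, and CDK4 is among its known targets.

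The start of CDK4 is shown first because CDK4 is a known target of MYC, which had the lowest ratio of all members, in RT4 cells. In RefSeq (GRCh38.p14), the window of 250 bases before the CDK4 start on chromosome 12 held 3 copies of CACGTG, which reads the same on both strands. This RefSeq start lies inside the longer CDK4 gene of GENCODE 29. At least 1 copy was present in 6.34% of 35116 promoter windows of this length, and 3 or more in 0.0797%. Binding of MYC to these copies was not measured. The 3 copies, in capitals with 10 bases on each side and read on the minus strand of chromosome 12, were:
CDK4 site 1, chr12:57752511-57752536: gtcaagcggtCACGTGtgatagcaac
CDK4 site 2, chr12:57752491-57752516: agcaacagatCACGTGgctgccatcg
CDK4 site 3, chr12:57752396-57752421: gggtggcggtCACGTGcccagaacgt

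CCNE1 and CDK6 are shown because they were the cyclin that was higher after treatment in all lines and the kinase with the highest ratio in any line. In both stretches, taken upstream of every annotated exon, the capitals mark the GC box GGGCGG on either strand. A GC box was present in 42.6% of the promoter windows. No E2F word (TTTGGCGC, TTTCCCGC, TTTGCCGC or TTTCGCGC, both strands) and no CACGTG was found in the 250 bases before these starts, while 2.79% of windows held an E2F word. A match describes the letters only.
CCNE1, chr19:29811741-29811897, plus strand: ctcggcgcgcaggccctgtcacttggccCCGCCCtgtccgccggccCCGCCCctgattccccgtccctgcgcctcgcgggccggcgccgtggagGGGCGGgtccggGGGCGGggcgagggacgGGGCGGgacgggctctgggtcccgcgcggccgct
CDK6, chr7:92836595-92836823, minus strand: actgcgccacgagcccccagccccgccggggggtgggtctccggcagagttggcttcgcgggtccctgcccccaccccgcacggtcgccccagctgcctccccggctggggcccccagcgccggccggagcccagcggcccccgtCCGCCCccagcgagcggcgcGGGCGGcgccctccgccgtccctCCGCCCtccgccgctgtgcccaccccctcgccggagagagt

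With quisinostat, MYC was lower in all 3 lines and CCND1 was lower in RT4 and SW780 cells, while CDKN1B stayed within 0.3 of its DMSO level on the log2 scale in every line. CDK2 and CDK4 did so too as deposited, but not when each line was centred on its median ratio, with CDK2 at -0.32 in SW780 and CDK4 at -0.34 in RT4 and -0.33 in SW780 cells. Responses are given as log2 ratios, FPKM with quisinostat divided by FPKM with DMSO in the same line. In RT4 cells, 2 of the 9 genes (MYC and CCND1) were at least 2-fold lower and 1 (CDK6) at least 2-fold higher. Among all loci with a ratio in RT4 cells, 14.3% were 2-fold lower and 19.2% 2-fold higher. Counted in either direction, 33.6% of loci passed 2-fold there. No member passed 2-fold in RT112 cells (3.95% of loci lower, 14.9% higher and 18.8% either way) or in SW780 cells (7.64%, 12.5% and 20.2%). The median ratio of the 9 genes was -0.07 in RT4 cells, 0.05 in RT112 and -0.18 in SW780 cells, beside 0.10, 0.06 and 0.05 for all loci. Only MYC was below -0.3 in all 3 lines, the limit that the study set for genes lowered in every line, and 4.99% of 9112 loci were. No member was above 0.3 in all 3 lines, where 11.4% of loci were. The sign was the same in all lines for 3 members (MYC and CDK4 negative, CCNE1 positive), beside 39.5% of loci. With GC correction, described below, the same sign held for 2 members (MYC negative, RB1 positive), beside 47.9% of loci. Without the RT112 pair, 2 members (MYC and CCND1) were below -0.3 and 2 (CCNE1 and RB1) above 0.3 in both other lines, beside 17.7% and 23.6% of loci. RB1 was under 0.3 in both with GC correction.

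**Figure D1:**
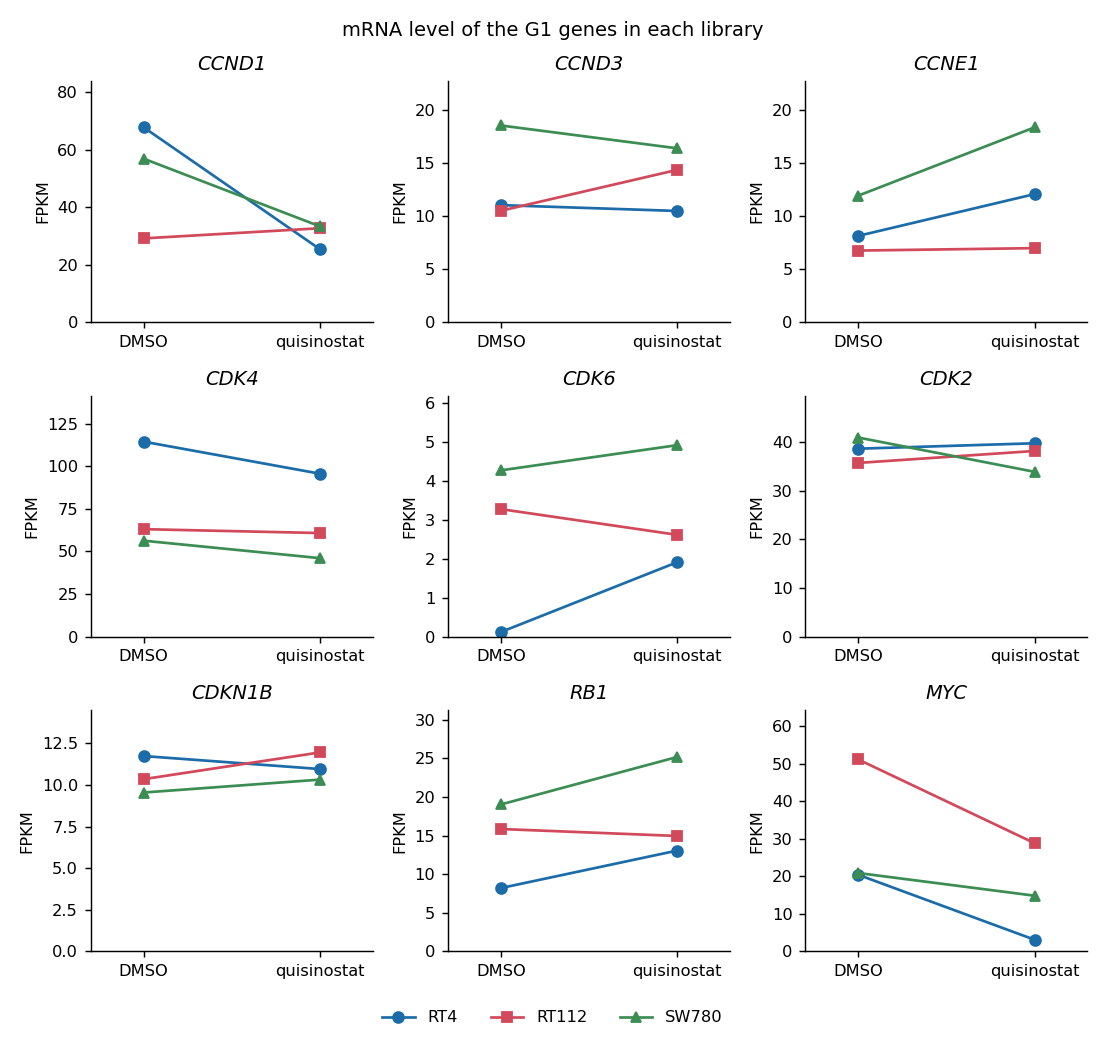
FPKM of each of the 9 genes (y axis, from 0) in DMSO and quisinostat libraries (x axis), with 1 point per library and a line joining the 2 libraries of a cell line. CCND1 goes from 67.8 to 25.4 FPKM in RT4 cells, MYC is lower in every line, and CDK2 and CDKN1B stay nearly level.

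Taking the 3 lines as replicates, with the line as a block in limma on log2(FPKM + 1), none of the 9 genes passed an adjusted p-value of 0.05. None of the 9430 loci tested did so (0% called), and the lowest adjusted p in limma was 0.161 over all loci and 0.319 over the members, for MYC. At an unadjusted p under 0.05, limma gave 1 of the 9 members (MYC, lower) beside 4.16% of loci lower and 9.68% higher. The members' directions below are therefore values in single pairs of libraries.

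The ratios varied with the GC content of transcripts, and not with the same sign in each line. Across loci, which are not independent replicates, Spearman's correlation between ratio and GC percent was -0.494 for RT4, 0.437 for RT112 and -0.224 for SW780. The members span 37.3% (RB1) to 56.2% (CCND3) GC. Ratios corrected for this trend are given for every member, and for named genes of the lists below where the sign turned or a ratio past 2-fold fell below it.

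**Figure D2:**
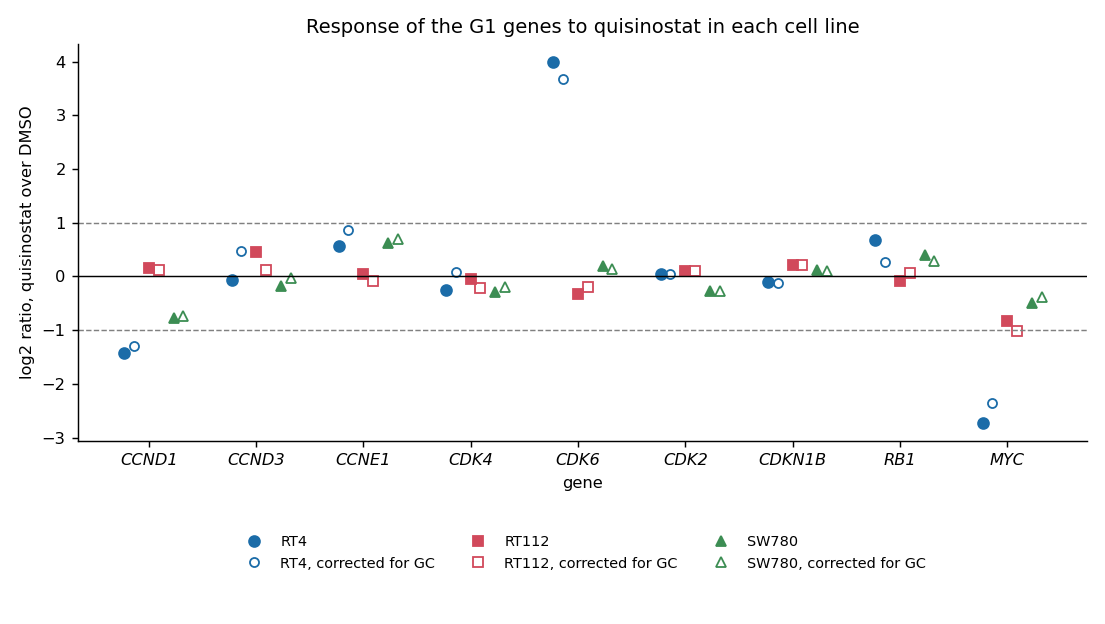
Log2 ratio of quisinostat over DMSO (y axis) for each gene (x axis) in RT4 (circles), RT112 (squares) and SW780 cells (triangles), with open symbols for ratios corrected for GC content and dashed lines at 2-fold. CDK6 in RT4 cells stands at 4.0 and MYC in RT4 cells at -2.72, while CDK2 and CDKN1B lie within 0.3 of 0 in every line.

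Cyclin D1 (CCND1, GRCh38 chromosome 11, 69641087 to 69654474, plus strand in GENCODE 29) is the D-type cyclin most often amplified in cancer. Its FPKM was 67.8 in RT4 cells, 29.2 in RT112 and 56.9 in SW780 cells with DMSO. With quisinostat it was 25.4 in RT4 cells, 32.7 in RT112 and 33.3 in SW780 cells. The lines thus lay apart in DMSO and close together after treatment, with RT112 cells slightly higher than before. As log2 ratios these were -1.42, 0.16 and -0.77, and 8.26% of loci in RT4 and 11.4% in SW780 cells had a lower ratio. Correction for GC content left them at -1.29, 0.12 and -0.74. Over the 3 lines limma gave a log2 fold change of -0.66 after adding 1 FPKM to each level (standard error 0.31, adjusted p = 0.406, lower in 2 of 3 lines). Without the RT112 pair it was -1.07 (adjusted p = 0.143 in limma), and over all other fits the adjusted p ran from 0.143 to 0.973. The summed FPKM of the urothelial and epithelial markers went from 1818 to 1050 in RT4, 1636 to 2551 in RT112 and 1913 to 1074 in SW780 cells. These were the directions of CCND1, but single markers went both ways. KRT19 followed the sum, from 637 to 181.4, 240.3 to 424.3 and 395 to 202 FPKM in the same order. EPCAM went against it in each line, from 62.4 to 94.6, 58.3 to 44.7 and 53.3 to 66.6 FPKM. The marker levels were not corrected for GC content, and the part of the markers in the CCND1 values was not tested.

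Cyclin D3 (CCND3, chromosome 6, 41934933 to 42050357, minus strand) serves the same kinases. It measured 11.05 FPKM in RT4 cells, 10.5 in RT112 and 18.6 in SW780 cells with DMSO. With quisinostat it measured 10.5, 14.4 and 16.4 FPKM. Its log2 ratios of -0.07, 0.45 and -0.18 make it the only member above 0.3 in RT112 cells. With GC correction the order turned over, to 0.48 in RT4 cells, 0.13 in RT112 and -0.02 in SW780 cells, so the direction in RT4 cells depended on that correction.

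Because the D-type cyclins share CDK4 and CDK6, their FPKM can be added, and CCND2, which is no member, was included after its values were seen. The sum of CCND1, CCND2 and CCND3 went from 86.3 to 61.4 FPKM in RT4 cells, from 39.7 to 47.1 in RT112 and from 75.5 to 50.3 in SW780 cells. In RT4 cells CCND2 went from 7.44 to 25.5 FPKM, so that CCND1 made up 78.6% of the sum before and 41.3% after treatment, and CCND2 8.62% and 41.6%. In RT112 cells CCND2 was at 0.00885 and 0.0781 FPKM, and in SW780 cells it was listed at 0 with DMSO and at 0.531 with quisinostat. CCND1 remained the main D-type cyclin mRNA in those lines, at 73.5% and 69.3% in RT112 and 75.4% and 66.3% in SW780 cells.

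Cyclin E1 (CCNE1, chromosome 19, 29811898 to 29824308, plus strand) activates CDK2 late in G1. Its FPKM was 8.14 in RT4 cells, 6.75 in RT112 and 11.9 in SW780 cells with DMSO. With quisinostat it was 12.1, 6.98 and 18.4 FPKM. CCNE1 was the only member with a positive ratio in all 3 lines, at 0.57, 0.05 and 0.62, although with GC correction these were 0.87, -0.09 and 0.71. For CCNE1 limma estimated a log2 fold change of 0.38 after adding 1 FPKM (standard error 0.22, adjusted p = 0.457). CCND1 was set against CCNE1 within each library after the values were seen. The ratio of CCND1 to CCNE1 FPKM went from 8.34 to 2.10 in RT4 and from 4.77 to 1.81 in SW780 cells, and was 4.32 and 4.68 in RT112 cells.

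**Figure D3:**
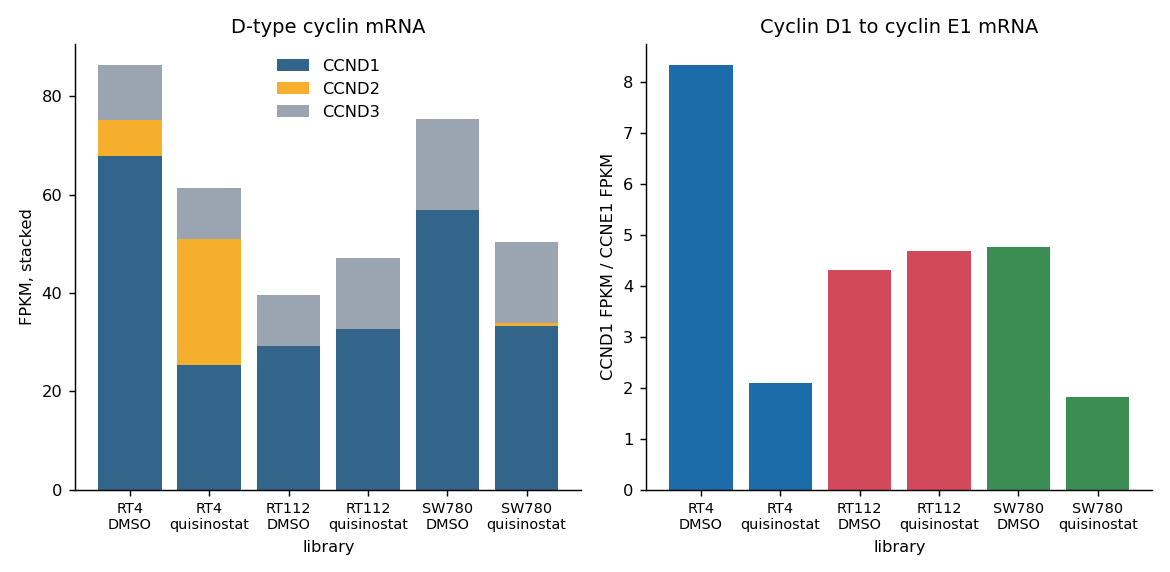
Left, FPKM of CCND1, CCND2 and CCND3 stacked for each library (y axis, FPKM). Right, FPKM of CCND1 divided by that of CCNE1 (y axis, from 0), with 1 bar per library and no replicates. CCND2 reaches 41.6% of the D-type cyclin sum in quisinostat-treated RT4 cells, and the CCND1 to CCNE1 ratio is 2.10 and 1.81 in treated RT4 and SW780 cells against 8.34 and 4.77 with DMSO.

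CDK4 (chromosome 12, 57747727 to 57756013, minus strand), a kinase that D-type cyclins activate, was the highest member in 5 of the 6 libraries. It measured 114.4 FPKM in RT4 cells, 63.1 in RT112 and 56.3 in SW780 cells with DMSO, the last being the 1 library in which CCND1 was above it. With quisinostat it measured 95.6, 60.8 and 46.1 FPKM. CDK4 was lower in all 3 lines by a small amount, with log2 ratios of -0.26, -0.05 and -0.29, and with GC correction 0.09, -0.22 and -0.19, so that the sign turned in RT4 cells. In limma the log2 fold change was -0.20 (95% confidence interval -0.61 to 0.21, adjusted p = 0.596). The level of CDK4 in RT4 cells was 2.03 times that in SW780 cells with DMSO.

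CDK6 (chromosome 7, 92604921 to 92836594, minus strand), the paralogue of CDK4, was the lowest member in all 6 libraries. Its FPKM was 0.120 in RT4 cells, 3.28 in RT112 and 4.28 in SW780 cells with DMSO. With quisinostat it was 1.92, 2.62 and 4.93 FPKM. RT4 cells with DMSO therefore stood apart from the other 5 libraries, and their treated library approached the level of the other lines. The log2 ratio in RT4 cells was 4.0 (2.16% of loci had a higher one), beside -0.32 in RT112 and 0.20 in SW780 cells. A level as low as 0.120 FPKM makes this ratio uncertain, and with 1 FPKM added to both libraries it was 1.38. The GC-corrected ratios were 3.69 in RT4 cells, -0.19 in RT112 and 0.13 in SW780 cells. In a ratio chosen after the values were seen, CDK4 exceeded CDK6 by 952.1-fold in untreated and 49.9-fold in treated RT4 cells, and by 9.35-fold to 23.2-fold in the other 4 libraries.

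CDK2 (chromosome 12, 55966769 to 55972784, plus strand), the kinase of cyclin E, varied least of all members, from 33.8 to 40.9 FPKM over the 6 libraries. Its FPKM with DMSO was 38.6 in RT4 cells, 35.7 in RT112 and 40.9 in SW780 cells. With quisinostat it was 39.7, 38.1 and 33.8 FPKM. These are log2 ratios of 0.04, 0.10 and -0.27, and 0.05, 0.09 and -0.27 with GC correction. The limma log2 fold change of -0.04 had a 95% confidence interval of -0.49 to 0.40 (adjusted p = 0.928).

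CDKN1B (chromosome 12, 12715058 to 12722371, plus strand) encodes p27, the KIP inhibitor of cyclin E-CDK2. It was nearly as even as CDK2, at 11.7, 10.3 and 9.54 FPKM in RT4, RT112 and SW780 cells with DMSO. With quisinostat it was at 10.95, 12.0 and 10.3 FPKM. The ratios of -0.10, 0.21 and 0.11 (-0.13, 0.22 and 0.11 with GC correction) had no common sign, and limma gave 0.07 (95% confidence interval -0.42 to 0.55, adjusted p = 0.897). CDK2, CDKN1B and CDK4 were the 3 of 9 members within 0.3 of 0 in all lines, beside 7.12% of all loci. After centring on the median CDKN1B was the 1 member left, beside 7.11% of loci. The related KIP inhibitor CDKN1A, a p53 target and no member, went from 41.1 to 44.7 FPKM in RT4 cells, from 14.1 to 36.2 in RT112 and from 46.3 to 66.3 in SW780 cells. Its log2 ratios of 0.12, 1.36 and 0.52 became 0.86, 0.91 and 0.74 with GC correction, which were closer to each other. The summed D-type cyclins, a ratio also chosen after the values were seen, were 1.63, 1.62 and 1.35 times the sum of CDKN1A and CDKN1B with DMSO in RT4, RT112 and SW780 cells, and 1.104, 0.978 and 0.656 times with quisinostat, lower in 3 of 3 lines.

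RB1 (chromosome 13, 48303726 to 48599436, plus strand), the pocket protein that CDK4 and CDK2 inactivate, had 8.20 FPKM in RT4 cells, 15.8 in RT112 and 19.0 in SW780 cells with DMSO. With quisinostat it had 13.1, 14.9 and 25.2 FPKM. RB1 was higher in RT4 and SW780 cells, with log2 ratios of 0.67 and 0.40, and -0.08 in RT112 cells. With its low GC content of 37.3%, correction brought the ratios to 0.28, 0.29 and 0.06 in RT4, SW780 and RT112 cells. In limma the log2 fold change was 0.31 (standard error 0.22, adjusted p = 0.540).

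MYC (chromosome 8) drives growth and ribosome production and induces cyclin D-CDK4 activity. Its FPKM was 20.4 in RT4 cells, 51.1 in RT112 and 20.9 in SW780 cells with DMSO. With quisinostat it was 3.09, 28.8 and 14.8 FPKM. Every treated library was below its own control, while treated RT112 cells still held more MYC mRNA than the untreated cells of the other lines. MYC went from the 79.0th to the 26.3rd percentile of all loci in RT4 cells, where it was 6.60-fold lower. It was 1.77-fold lower in RT112 and 1.41-fold lower in SW780 cells. The log2 ratios were -2.72, -0.83 and -0.49, and 1.60%, 5.66% and 19.1% of loci had lower ones in RT4, RT112 and SW780 cells. GC correction gave -2.35, -1.02 and -0.39, which put MYC past 2-fold in RT112 cells. Over the lines, limma gave -1.22 after adding 1 FPKM to each level (standard error 0.39, adjusted p = 0.319, lower in 3 of 3 lines). Leaving out 1 line at a time gave -0.64 without RT4, -1.43 without RT112 and -1.60 without SW780 cells in limma, with adjusted p of 0.596, 0.193 and 0.970, and over all other fits the adjusted p ran from 0.169 to 0.973.

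Between the untreated lines, some members differed by more than 2-fold. RT4 and RT112 cells differed so in 3 of 9 genes (CCND1, CDK6 and MYC), beside 33.6% of all loci. RT4 and SW780 cells differed in 3 (CDK4, CDK6 and RB1), beside 32.5%. RT112 and SW780 cells differed in MYC alone, beside 25.5%. RT4 cells had 2.33 times the CCND1 of RT112 cells and 2.32-fold less RB1 than SW780 cells, and RT112 cells had 2.51 and 2.45 times the MYC of RT4 and SW780 cells. The largest gap was CDK6, which was 27.3-fold and 35.6-fold lower in RT4 than in RT112 and SW780 cells. With 1 library per line, none of these gaps has a replicate check, and the order of neighbouring members within a library has none.

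The other genes of the pathway were read from lists drawn from general knowledge, and none of the genes on them passed an adjusted p of 0.05 in limma. Of 11 other G1 cyclins, kinases and inhibitors found among 13 listed, 4 were 2-fold higher in RT4 cells and 2 in RT112 cells. None of the 10 with a ratio in SW780 cells was. CCND2, 1 of the 2 in RT112 cells, was at 0.00885 and 0.0781 FPKM there. It had no ratio in SW780 cells, where it was listed at 0 with DMSO. No gene of this list was 2-fold lower. Over all loci, 19.2%, 14.9% and 12.5% were 2-fold higher and 14.3%, 3.95% and 7.64% lower in these lines. CKS1B, a small CDK-binding subunit, and CDC25A, a phosphatase that activates CDK2, were below -0.3 in all 3 lines, beside 4.99% of loci. Their log2 ratios in RT4, RT112 and SW780 cells were -0.45, -0.55 and -0.42 for CKS1B and -0.49, -0.84 and -0.81 for CDC25A. MNAT1, a part of the CDK-activating kinase, was above 0.3 in all lines, with 1.05, 0.46 and 0.54, beside 11.4% of loci. Its catalytic partner CDK7 had 0.96, 0.02 and 0.60. With GC correction MNAT1 was 0.63 in RT4 cells, and CDC25A, at -0.28 there, was no longer below -0.3 in all lines.

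Among 7 ubiquitin ligase genes found of 9 listed, RBX1 was the 1 gene below -0.3 in all lines, beside 4.99% of loci. RBX1, a RING subunit of these ligases, had -0.87, -0.48 and -0.38. SKP2, the F-box protein that targets p27, had log2 ratios of 0.00 in RT4 cells (-0.25 with GC correction), -0.60 in RT112 and -0.72 in SW780 cells. AMBRA1, which directs D-type cyclins to degradation, had -2.03, -0.58 and 0.90 in the same order. CDC34, a ubiquitin-conjugating enzyme, had -0.18, 0.68 and 0.23, but 1.37, -0.42 and 0.71 with GC correction, so that its direction turned in RT4 and RT112 cells. The deubiquitinase USP28 had 0.23, -0.19 and -0.0021. The list medians were -0.18, -0.38 and -0.02.

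Of 12 pocket protein, E2F and MuvB genes found among 17 listed, 4 were below -0.3 and 2 above 0.3 in all lines. The shares of all loci were 4.99% and 11.4%. TFDP1, the dimer partner of E2F factors, went from 50.0 to 26.1 FPKM in RT4 cells, from 72.8 to 54.2 in RT112 and from 69.6 to 39.7 in SW780 cells. E2F8, a repressor of the family, had ratios of -0.59, -0.62 and -0.56. E2F6, another repressor, was higher, with 1.37, 2.67 and 2.08 from levels of 0.265 to 1.49 FPKM. LIN37 had 0.63, 0.61 and 0.41, at a locus shared with PSENEN. The medians of this list were 0.13, -0.07 and 0.01. The other genes below the limit, RBL1 and RBBP4, were named after their values were seen, with -0.35, -0.36 and -0.63 for the pocket protein RBL1 and -0.37, -0.35 and -0.46 for RBBP4. With GC correction both were above -0.3 in RT112 cells, at -0.22 and -0.21, which left TFDP1 and E2F8.

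Genes of DNA replication that E2F factors activate had negative ratios in most pairs. Of 18 such genes, all found, 17 had a negative ratio in RT4 cells, 14 in RT112 and 18 in SW780 cells. Their median was -0.57 in RT4 cells, -0.23 in RT112 and -0.79 in SW780 cells, beside the 0.10, 0.06 and 0.05 of all loci. The share of all loci with a negative ratio was not counted. Since the all-loci median was positive in each line, fewer loci were negative than positive. In the same order, 8, 0 and 4 of them were 2-fold lower, beside 14.3%, 3.95% and 7.64% of loci. The 3 genes below -0.3 in all lines, beside 4.99% of loci, were MCM3, RRM1 and CDC45, named after their values were seen. With GC correction there were 4 (MCM3, MCM7, CDT1 and CDC45), and 16, 16 and 18 of the list were negative in RT4, RT112 and SW780 cells. Then 4, 0 and 2 were 2-fold lower, beside 6.3%, 3.89% and 5.55% of loci with that correction. The corrected counts of negative genes and of genes below -0.3 in all lines have no such share, since it was not counted. MCM5, a subunit of the replicative helicase, had -2.45, 0.35 and -1.38, and CDT1, which loads that helicase, had -2.04, 0.64 and -1.13. With GC correction MCM5 was -1.87, 0.0026 and -1.21, and CDT1 was -0.58, -0.37 and -0.68, so that CDT1 was negative in RT112 cells too. Closest to 0 by the middle ratio were RFC2 and CDC6, with CDC6 at -0.19, -0.25 and -0.18 and RFC2 at 0.04, -0.18 and -0.14 (0.40, -0.35 and -0.04 with GC correction). At an unadjusted p under 0.05, limma gave 6 of the 18 as lower and none as higher, beside 4.16% and 9.68% of loci.

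MYC target genes make up the next list. Of 16 genes, all found, 14 had a negative ratio in RT4 cells, 11 in RT112 and 13 in SW780 cells. The medians were -0.39, -0.56 and -0.55, beside 0.10, 0.06 and 0.05 for all loci. Here too, the share of all loci with a negative ratio was not counted. Below -0.3 in all lines were 5 of the 16, beside 4.99% of loci. At an unadjusted p under 0.05 limma gave 5 as lower, beside 4.16% of loci. The 5 below the limit, named after their values were seen, were NCL, NPM1, NOP56, NOP58 and NME1, most of them genes of the nucleolus. The locus of NME1 is shared with NME2. NCL had -0.81, -0.63 and -0.74. CAD, the enzyme that begins pyrimidine synthesis, had -1.65, 0.09 and -1.18, and BOP1, a ribosome biogenesis factor, had -2.50, 0.83 and -0.88. With GC correction CAD was -0.95, -0.34 and -0.97 and BOP1 was -1.01, -0.21 and -0.42, so that both turned negative in RT112 cells. ODC1, the first enzyme of polyamine synthesis, had -0.04, 0.01 and 0.25, and RRP9 had -0.97, 0.39 and 0.10. Both turned sign in RT4 and RT112 cells with GC correction, to 0.14 and -0.06 for ODC1 and 0.08 and -0.30 for RRP9. Over the list, 11, 16 and 12 genes were then negative in RT4, RT112 and SW780 cells and 7 were below -0.3 in all lines, NOP56 no longer among them. Neither share was counted over all loci with GC correction. The corrected counts therefore have no baseline, and the 4.99% above is for uncorrected ratios.

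Of the MYC network, 8 of 14 listed genes were found. MXI1, which competes with MYC for MAX, went from 0.450 to 4.37 FPKM in RT4 cells, from 3.63 to 5.26 in RT112 and from 0.720 to 2.90 in SW780 cells. It was the 1 gene of the list above 0.3 in all lines, beside 11.4% of loci. MAX itself had ratios of 0.28, 0.40 and 0.35. MYCL, a MYC paralogue, was 24.4 FPKM in untreated and 5.44 in treated RT4 cells, and its ratios were -2.17, 0.39 and -0.998. With GC correction MAX, at 0.47 in RT4 cells, was above 0.3 in all lines as well. MLX had -0.43, -0.60 and -0.08.

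Upstream of the D-type cyclins, the list of FGFR3 and growth signal genes had medians of -0.64 in RT4 cells, -0.25 in RT112 and 1.11 in SW780 cells. FGFR3, for which fusion and full-length transcripts were not separated here, had -1.71, 0.93 and -2.005. With GC correction it had -0.54, 0.15 and -1.64, so that it was past 2-fold in SW780 cells alone. That pair of libraries held low levels, 2.49 FPKM with DMSO and 0.62 with quisinostat. The paper's RT-qPCR, with primers at the N-terminus, reported FGFR3 mRNA as not lowered in any line and as higher in SW780 cells. In RT4 and SW780 cells the single pairs here were lower, unlike that report, which used biological replicates. The difference was not tested. SPRY4, a feedback inhibitor of receptor signalling, had -1.79, -1.26 and 0.91, and ETV5 had 1.148, -0.19 and 1.70. JUN, an AP-1 factor, was above 0.3 in all lines, with 1.85, 2.46 and 2.11, as was EGR1, named after its values were seen. Of all loci, 11.4% were. EGR1 had 0.45, 1.05 and 4.89, from low levels of 0.218 to 0.889 FPKM with DMSO. With GC correction EGR1 had 0.94, 0.78 and 5.03, below 2-fold in RT112 cells. With GC correction the median in RT4 cells turned to 0.11.

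**Figure D4:**
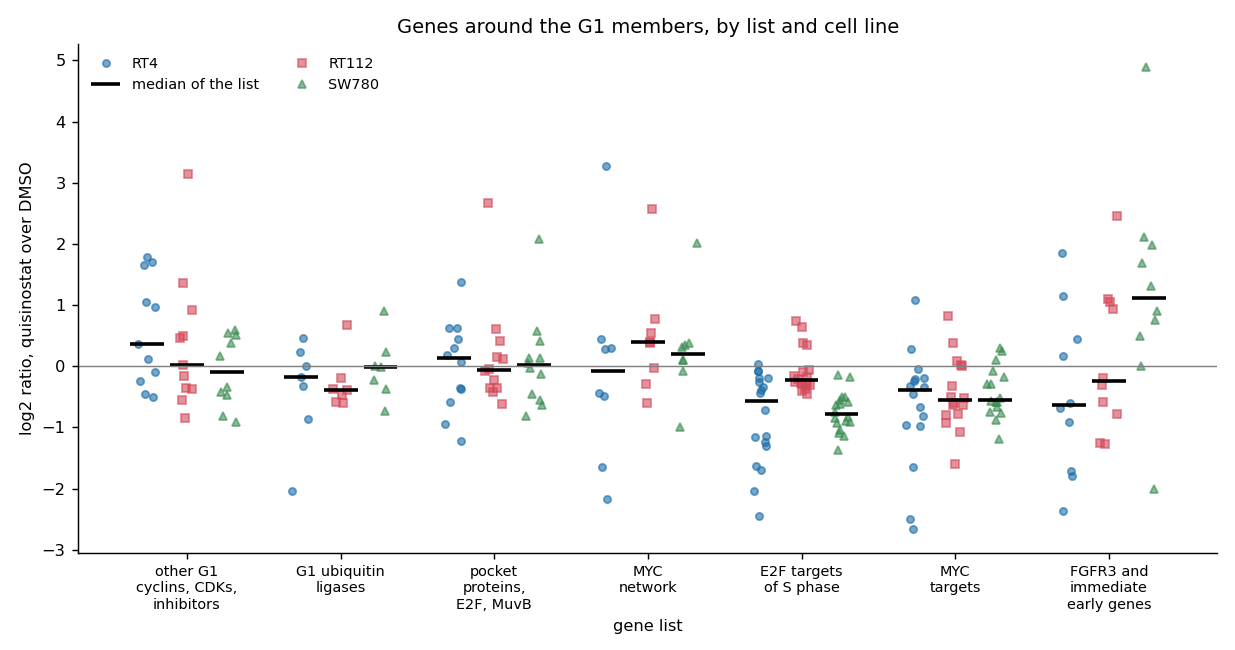
Log2 ratio of quisinostat over DMSO (y axis) for each gene of 7 lists (x axis), with 1 point per gene and cell line and black bars at list medians. The E2F targets have medians of -0.57 in RT4 cells, -0.23 in RT112 and -0.79 in SW780 cells, and the MYC targets -0.39, -0.56 and -0.55.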

How the data were processed

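Polyadenylated RNA was prepared as stranded libraries and sequenced by the authors on an Illumina NovaSeq, and the deposited values are FPKM per assembled locus from HISAT2, StringTie and Ballgown. The submitters' processing notes name GRCh38, Trimmomatic 0.36, HISAT2 2.2.1, SAMtools 1.15.1 and StringTie 2.2.1. The annotation release is not given in the sources used here. FPKM includes scaling to length and library and no stated GC correction. Samples were grouped by title, since 1 label of the treated SW780 library misspells its line. All columns of values were used.

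The members and lists were chosen with earlier results of these data known. Ratios used no pseudocount and loci above 0 in both libraries of a line. limma 3.58.1 in R 4.3.3 was run on log2(FPKM + 1) with the cell line as block (each pair comes from 1 line), leaving out loci whose mean FPKM was under 1, with a trend and Benjamini-Hochberg adjustment over 9430 loci. The p-values measure the spread between these lines, each treated at its own dose. On simulated data with 200 of 9430 loci changed, each locus having its own spread, it recovered 47 of 100 loci changed by 2 and 69 of 100 changed by -3 on the log2 scale. Each symbol was given the GC percent of its longest coding transcript in GENCODE 29, or of its longest transcript where none was coding, for 92.3% of loci with all ratios. The correction subtracted a lowess curve (span 0.3). Promoter windows were matched in RefSeq by symbol. CCND1 and CDK2 had no window, the RB1 window lies inside the gene, and MYC sequence is not shown.

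The genes named were the members, CDKN1A and, from each list, the 2 lowest and 2 highest by the middle ratio at a mean FPKM of at least 1, with the 3 loci most like CCND1 and MYC. Genes outside this rule are marked in the text as named after their values were seen, as are the ratios of genes within a library. Alternatives were other pseudocounts, filters, scalings, limits, GC correction, no trend, no block and leaving out each line.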

Additional observations from a re-analysis of the deposited data

Results flagged for a closer look

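CDK6 was the 1 member with ratios beyond 0.3 in opposite directions. Its log2 ratio was 4.0 in RT4 cells, from 0.120 to 1.92 FPKM, and -0.32 in RT112 cells, from 3.28 to 2.62 FPKM. In SW780 cells it was 0.20. The difference between the lines was not tested, since each line has 1 library per treatment, and dose differed with the line. With 1 FPKM added, the ratios were 1.38 in RT4 and -0.24 in RT112 cells. With the groups of 1 library used here, no library could be checked as an outlier.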

How the results depend on the processing

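No member passed an adjusted p of 0.05 in limma under any of the 11 other fits, and at an unadjusted p under 0.05 there was 0 of 9 without the block on cell line (4.45% of loci) and 2 (MYC and CCND1) without RT112 (21.9% of loci). With a limit of 0.5 in place of 1 on the log2 scale, 3 members were higher in RT4 (32.9% of loci), 1 was lower in RT112 (14.2%), and in SW780 cells 1 was lower (18.8%) and 1 higher (25.1%). With GC correction 1 (MYC) was 2-fold lower in RT112 cells (3.89% of loci). No member was lower in all 3 lines at a limit of 0.5 or of 1 (0 in each, beside 1.89% and 0.285% of loci). Leaving out 1 line gave 1 to 2 members lower and 0 to 2 higher in the lines that remained, the highest counts being without RT112 (17.7% and 23.6% of loci). With libraries rescaled to a common FPKM sum, 2 members differed 2-fold between untreated RT112 and SW780 cells (25.8% of loci). Members within 0.3 of 0 in all lines went from 3 to 1 after centring on the median and to 4 with GC correction, alternatives for this count that were chosen after seeing the data, as were those for members of 1 sign and for the lists with GC correction. Of the counts under the alternatives, 83 stayed within 1.5 times their value, the 4 with GC correction among them.

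The fold change in limma changed sign for 4 members. With quantile normalization CCND3 was -0.00676 and CDKN1B -0.0172. Leaving out 1 line gave -0.118 (without RT112) to 0.175 for CCND3, -0.0376 (without RT4) to 0.774 for CDK6 and -0.113 to 0.0667 (without SW780) for CDK2. The cause was not tested. Quantile normalization moved the median of all loci in RT112 cells by -0.12. CCND1, CCNE1, CDK4, RB1 and MYC kept their sign in these fits. Depth is unknown, which limits CDK6 in RT4 cells most.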

Other observations

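The loci whose levels followed CCND1 most closely over the 6 libraries were POLR2A, TRIM28 and AKT2, with Pearson's r of log2(FPKM + 1) of 0.982, 0.982 and 0.979. POLR2A, the large subunit of RNA polymerase II, went from 32.7 to 9.74 FPKM in RT4, from 14.4 to 15.3 in RT112 and from 31.7 to 14.8 in SW780 cells. Those most like MYC were NCBP2-AS2, RBX1 and RPSA, with r of 0.996, 0.979 and 0.977. RPSA, a ribosomal protein gene, went from 209.6 to 115.5 FPKM in RT4, from 402.1 to 301.1 in RT112 and from 258.8 to 195.3 in SW780 cells. The 6 points are pairs from 3 lines, the levels were not corrected for GC content, the loci were the highest of many, and the values describe likeness only.

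Of the INK4 inhibitors other than CDKN2A, CDKN2C and CDKN2D were found, and both are named here after their values were seen. CDKN2D, which binds CDK4 and CDK6, had log2 ratios of 1.70, 0.49 and 0.17 in RT4, RT112 and SW780 cells. CDKN2C had 0.36, 0.92 and -0.34. With GC correction CDKN2D was 2.79, -0.22 and 0.51, turning sign in RT112 cells, and CDKN2C was 1.11, 0.47 and -0.12.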
